A study of Homo sapiens with 6 samples.

Results

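Knockdown of CDK16 in MDA-MB-231 cells was followed by messenger RNA sequencing of 3 of the 6 samples in the series: cells with a scramble shRNA, cells with CDK16-sh1 and cells with CDK16-sh2. These 3 samples were chosen because the labels name a hairpin for each, and both CDK16 hairpins were compared with the same scramble library. Of the 41471 gene symbols in the count table, the 15295 whose CPM, counts scaled to a common library total, averaged at least 1 over the 3 libraries are described, from RP11-195F19.30 at 1.0001 CPM upward, while NEB at 0.9998 CPM was left out. The other 3 samples of the series are MDA-MB-231 cells given DMSO or Rebastinib, and of these only the DMSO library is used here, as a control library from another experiment.

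MDA-MB-231 is a human line from a triple-negative breast cancer, grown here in DMEM with serum. All 3 groups carried a lentiviral hairpin vector with a GFP marker and were sorted into stable lines, so the scramble cells share the vector with the knockdown cells and the DMSO cells do not, as far as the labels and methods state. Each condition had 1 library, so no difference below has a replicate check, and "2-fold" is a call by size alone. In bulk RNA, fewer cells in a phase of the cell cycle and less RNA per cell cannot be told apart.

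CDK16, also called PCTAIRE1, is a kinase of the cyclin-dependent family that is activated by cyclin Y and not by the cyclins that drive the classical cell cycle. It is known for roles in vesicle transport, neurite outgrowth and sperm formation. PRC1, which bundles antiparallel microtubules at the central spindle during cell division, is the substrate at the centre of the study.

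The study followed CDK16, PRC1 and cell-cycle genes by RT-qPCR, and the primers for CDK16, PRC1 and TOP2A are shown because they place the study's own assay on the transcripts counted here. Each primer is written 5′ to 3′, and capitals mark bases that lie across an exon junction from the primer's first base, on the longest GENCODE transcript that holds both primers.
CDK16 forward: tccgtcgtgtcagcctaTCT
CDK16 reverse: tcatgttccagtctgatctcctt
PRC1 forward: aagtggaattgatgcgaaaacag
PRC1 reverse: cctcacgcctagaagcCTTTG
TOP2A forward: ttaatgctgcggacaacaaaca
TOP2A reverse: cgaccacCTGTCACTTTCTTTT
On GRCh38 the CDK16 pair lies on chromosome X between 47224727 and 47225070 on the plus strand, from exon 4 to exon 6, and spans 157 bases of transcript. It matched 8 of the 23 annotated CDK16 transcripts. The PRC1 pair lies on the minus strand of chromosome 15 between 90981654 and 90981932 in exons 4 and 5, spans 201 bases and matched 5 of 19 transcripts. The TOP2A pair lies on the minus strand of chromosome 17 between 40413286 and 40416068, from exon 4 to exon 6, spans 217 bases and matched 1 of 5 transcripts.

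CDK16 itself, a gene on chromosome X from 47217860 to 47229997, was lower with both hairpins. Scramble cells gave 3223 counts of it against 1360 under CDK16-sh1 and 846 under CDK16-sh2, or 118, 41.2 and 33.5 CPM after TMM scaling, which sets libraries level by the bulk of their genes. With a prior count of 2 the log2 fold change was −1.52 under CDK16-sh1 (95% Clopper-Pearson interval −1.61 to −1.43, counting error only) and −1.82 under CDK16-sh2 (−1.93 to −1.71). Below, each gene's counts are given in the order scramble, CDK16-sh1, CDK16-sh2, and the pair of values in brackets after them is the log2 fold change against scramble under CDK16-sh1 and CDK16-sh2. Against the DMSO library the same libraries were lower by −1.35 and −1.67 on the log2 scale. The transcript was thus reduced and not lost in either library.

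The relatives and partners of CDK16 did not all follow it. On the scale of the authors' RPKM, which corrects for gene length, the scramble library had 19.1 for CDK16, 9.71 for CCNY (cyclin Y), 8.47 for CCNYL1 (cyclin Y-like 1), 6.36 for CDK5, 3.03 for CDK17 and 1.19 for CDK14. CDK15 and CDK18, the other listed members, were under the CPM limit. CCNYL1 had 1030, 698 and 438 counts in scramble, CDK16-sh1 and CDK16-sh2, (−0.84 and −1.12) and was past 2-fold in CDK16-sh2 only. CDK14, a PFTAIRE kinase of the same branch, had 210, 107 and 133 counts (−1.23 and −0.55). CDK17, another PCTAIRE kinase, had 512, 331 and 419 counts (−0.90 and −0.18), and the interval in CDK16-sh2, −0.37 to 0.01, included no change. CCNY had 1441, 2119 and 1514 counts (0.28 and 0.18) and CDK5 had 483, 717 and 477 (0.29 and 0.09), so neither was below scramble with either hairpin.

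At the 2-fold threshold 221 genes were lower with both hairpins, 1.44% of the genes described, and 67 were higher with both, 0.438%. CDK16-sh1, taken by itself, had 1049 genes lower (6.86%) and 663 higher (4.33%). For CDK16-sh2 there were 1166 lower (7.62%) and 336 higher (2.2%). The hairpins share the scramble library, so a low or high value in that library moves both comparisons together. With both hairpins taken as 1 group against scramble, the quasi-likelihood test of edgeR, Benjamini-Hochberg adjusted, called 0 genes (0.0%) at an adjusted p of at most 0.05 and 2-fold. The smallest adjusted p by this edgeR test was 0.195, with 382 genes at an unadjusted p under 0.05, and DESeq2 also called 0, with 233 such genes. These pooled tests take their spread only from the difference between the hairpins, with 1 residual degree of freedom. They did not call CDK16 itself, so their lack of calls is no measure of how many genes changed. Scaling by library totals in place of TMM lowered the median of all genes in CDK16-sh2 from 0.02 to −0.18 and changed the split to 328 lower and 33 higher in both. Fold changes also followed the GC content and exon length of genes, and with that trend removed by a smooth curve 123 of the 221 genes lower (55.7%) and 35 of the 67 higher (52.2%) kept the call in both. Of the shared genes named in the text, 34 of 52 lower and 8 of 23 higher lost it, and values with the trend removed are given below where that happened to the genes a paragraph turns on.

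**Figure D1:**
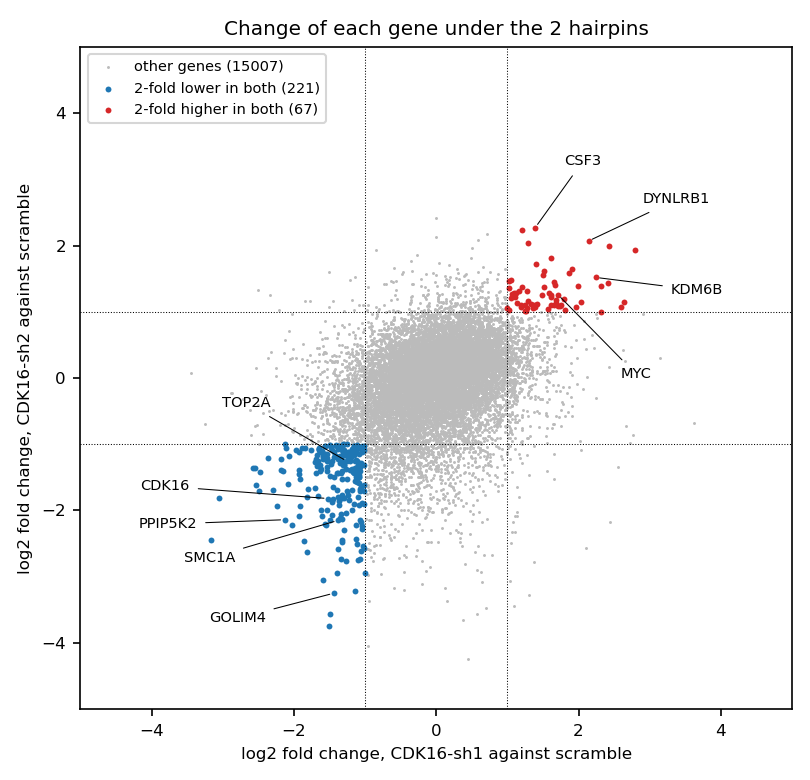
Log2 fold change of each of the 15295 genes in CDK16-sh1 (horizontal axis) and CDK16-sh2 (vertical axis) against the scramble library, with dotted lines at 2-fold. The 221 genes lower in both sit at the lower left with CDK16, and the 67 higher in both at the upper right, where DYNLRB1 is at 2.14 and 2.07.

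The DMSO library gives a view of these genes from a control that neither hairpin comparison used. Scramble and DMSO, both without a hairpin against CDK16, differed by at least 2-fold in 1615 genes lower and 1875 higher in scramble out of 15290 shared symbols (10.6% and 12.3%). Against DMSO, 1628 genes were 2-fold lower in both hairpin libraries (10.6%) and 1555 higher (10.2%). Of the 221 genes lower against scramble, 136 (61.5%) were also 2-fold lower against DMSO in both, and 21 were above DMSO in both. Of the 67 genes higher against scramble, 27 (40.3%) were also 2-fold higher against DMSO, 7 were below it in both, and 45 (67.2%) had a scramble level under that of DMSO, while for 112 of the 221 (50.7%) scramble was above DMSO. Over all genes the median of scramble against DMSO was 0.01 on the log2 scale, so genes lay about evenly on both sides. The hairpin libraries are the same in both views, and the DMSO cells come from another experiment and table.

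The largest falls shared by both hairpins, ranked by the smaller change where CPM averaged 5 or more, included enzymes, kinases and membrane traffic genes. PPIP5K2, which makes inositol pyrophosphates, had 1286, 353 and 270 counts (−2.13 and −2.14) and fell further than CDK16. FNBP1L, an F-BAR protein that links curved membrane to actin assembly, had 985, 327 and 165 counts (−1.86 and −2.46). Both hairpin libraries were far under scramble for each of these genes and close to each other for PPIP5K2. For FNBP1L the scramble library was itself under DMSO, at −1.94 on the log2 scale. SLC26A2, a sulfate transporter needed for cartilage matrix, had 557, 177 and 179 counts (−1.92 and −1.52). GOLIM4, a Golgi membrane protein, had 4201, 1872 and 408 counts (−1.44 and −3.25), a fall that was much deeper in CDK16-sh2.

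Further genes of this ranking act in signaling and protein folding. PRKACB, a catalytic subunit of protein kinase A, had 450, 195 and 98 counts (−1.47 and −2.07), and KCTD12, an auxiliary subunit of GABA-B receptors, had 500, 223 and 163 (−1.43 and −1.50). EDEM3, which trims mannose from misfolded glycoproteins, had 750, 343 and 89 counts (−1.40 and −2.94), again lowest in CDK16-sh2. FKBP5, a co-chaperone of steroid receptors, had 1001, 464 and 345 counts (−1.38 and −1.43). The zinc finger gene ZNF699 fell from 339 counts to 156 and 51 (−1.38 and −2.58), and TMEM263, a membrane protein gene, from 1172 to 517 and 307 (−1.45 and −1.82). All of these genes were also below DMSO in both hairpin libraries. With the GC and length trend removed PRKACB, EDEM3 and FKBP5 stood just under 2-fold in CDK16-sh1, at −0.99, −0.92 and −0.94.

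A few shared falls changed side with the control. NRK, a kinase of the Ste20 group, had 1215, 323 and 429 counts (−2.18 and −1.39), but scramble was 1.98 above DMSO on the log2 scale, and the hairpin libraries were at −0.20 and 0.57 against DMSO. A lincRNA on chromosome X, from 45848074 to 45851490, had 415, 172 and 144 counts (−1.53 and −1.41), with scramble 3.61 above DMSO. The hairpin libraries were therefore above DMSO for that transcript, by 2.09 and 2.19. RP11-78I14.1, annotated as antisense, had 326, 111 and 86 counts (−1.81 and −1.79). The strand setting of the authors' counting is not given in the sources used here, so reads of an antisense gene and of a gene on the opposite strand may not be separable, which also holds for TMPO-AS1 (2428, 660 and 852 counts, −2.15 and −1.40).

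Among the shared rises, DYNLRB1, a light chain of cytoplasmic dynein, had the largest change by the smaller of its values. DYNLRB1 had 1614, 8634 and 6284 counts (2.14 and 2.07) and was above DMSO by 1.52 and 1.42. MED19, a Mediator subunit, had 311, 1421 and 910 counts (1.91 and 1.65). KDM6B, a demethylase of histone H3 lysine 27, had 294, 1693 and 786 counts (2.24 and 1.52), and BCL7A, a subunit of the SWI/SNF chromatin remodelling complex, had 101, 326 and 313 (1.40 and 1.72). For these 3 chromatin and transcription genes scramble was under DMSO, by −1.32, −1.79 and −2.80, and BCL7A in the hairpin libraries stayed below DMSO at −1.40 and −1.10.

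Transcription factors and cytokine genes followed in the ranking. MYC, the growth-regulating transcription factor, had 2853, 11280 and 6340 counts (1.71 and 1.26) and the same level in scramble as in DMSO, a log2 difference of 0.00. TRIB1, a pseudokinase that steers protein degradation, had 136, 471 and 377 counts, and CEBPD, a C/EBP transcription factor of the acute-phase response, had 83, 323 and 213 (1.66 and 1.45). MYC, TRIB1 and CEBPD all lie on chromosome 8. CSF3, the granulocyte colony-stimulating factor, had 114, 365 and 517 counts (1.39 and 2.27), yet was below DMSO by −1.24 and −0.38 in the hairpin libraries. ZC3H12A, an RNase that degrades cytokine messages, had 268, 999 and 584 counts (1.61 and 1.22). For TRIB1, CEBPD and ZC3H12A scramble was under DMSO, by −1.26, −0.77 and −1.09. Against DMSO the hairpin libraries were at 0.24 and 0.28 for TRIB1, 0.90 and 0.66 for CEBPD, and 0.53 and 0.12 for ZC3H12A. CEBPD and CSF3 were under 2-fold in CDK16-sh1 with the trend removed, at 0.98 and 0.93.

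Other leading rises were genes of metabolism and of less studied function. HSD17B10, a mitochondrial dehydrogenase, had 948, 4577 and 2316 counts (1.99 and 1.39), with scramble within 0.07 of DMSO on the log2 scale. ZSWIM4, a zinc finger gene, had 303, 1123 and 989 counts (1.61 and 1.81), and ZNF296 had 136, 577 and 290 (1.79 and 1.19), and both were above DMSO by more than 2-fold in each hairpin library. EVI5L, of the Rab GTPase-activating family, had 1343, 3962 and 3108 counts (1.28 and 1.32) but lay slightly below DMSO, at −0.22 and −0.21, and was at 0.89 in CDK16-sh1 with the trend removed. LMBR1L, a membrane receptor gene, had 76, 216 and 185 counts (1.21 and 1.37), and CTC-518P12.6, annotated as antisense, had 150, 510 and 337 (1.48 and 1.26).

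**Figure D2:**
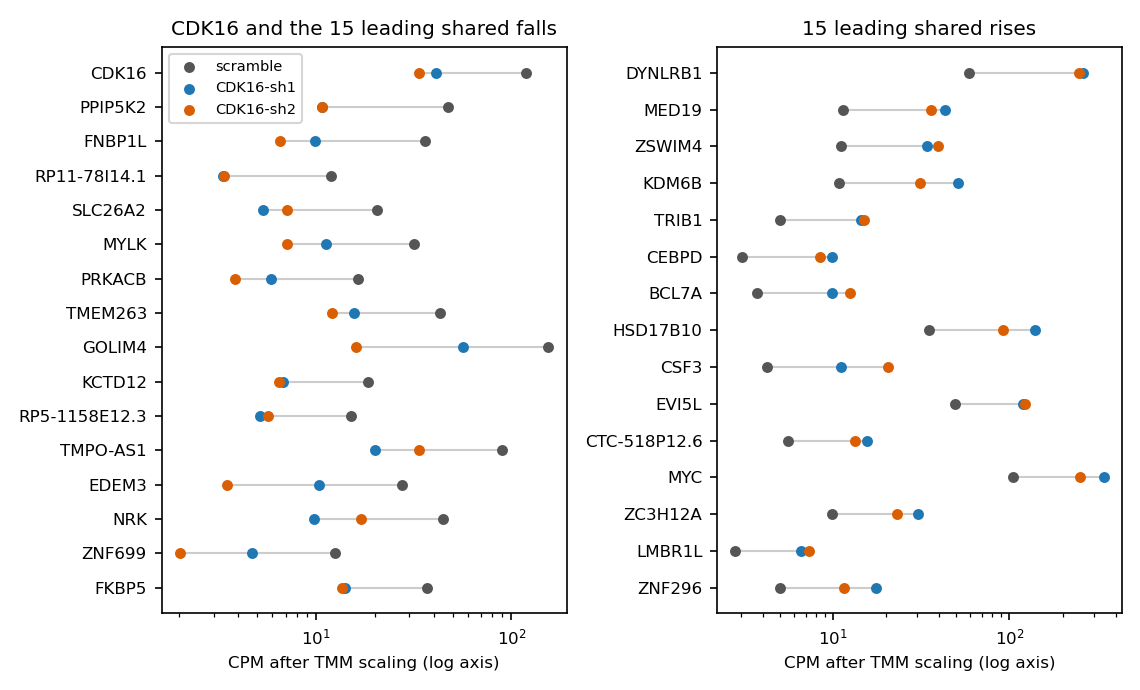
Level in CPM after TMM scaling (log axis) of CDK16 with the 15 leading shared falls (left) and of the 15 leading shared rises (right), 1 point for each library. In every panel row the scramble point lies outside both hairpin points, and the hairpins are furthest apart for GOLIM4 at 56.8 and 16.1 CPM.

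Genes of mitosis were mostly below scramble with both hairpins, by amounts that seldom reached 2-fold. As a background, 30.9% of all genes were below scramble in both libraries by any amount and 32.2% above, and the median of all genes was 0.00 and 0.02 for the respective hairpins. Here and below, the lists were chosen with earlier results of these data known. A share set beside that of all genes therefore describes a list and tests nothing. Of the 20 central spindle and chromosomal passenger genes 16 were below in both, with medians of −0.62 and −0.35, and 0 passed 2-fold in both. PRC1 had 8622, 6584 and 7323 counts (−0.67 and −0.13), so its level in CDK16-sh2 was close to that of scramble. KIF14, a kinesin that recruits citron kinase to the midbody, had 1275, 569 and 685 counts (−1.44 and −0.79). CEP55, which organises abscission, had 4024, 2252 and 2390 (−1.11 and −0.64), and ECT2, which activates RHOA at the cleavage furrow, had 3784, 2058 and 2289 (−1.15 and −0.62). RHOA itself stood at 0.03 and 0.08. With the GC and length trend removed the list's medians were −0.46 and −0.32.

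The mitotic kinesins, motors that build and elongate the spindle, had medians of −0.74 and −0.32, with 13 of 16 below in both and 0 past 2-fold in both. KIF2A, a microtubule depolymerase, had 1318, 920 and 532 counts (−0.79 and −1.20), while KIF2C had 4838, 6344 and 4609 (0.11 and 0.04). In the kinetochore and checkpoint list 27 of 45 genes were below in both, with medians of −0.53 and −0.27. CASC5 (also named KNL1), the scaffold that recruits checkpoint kinases, was the only member past 2-fold in both (all genes 1.44% lower). It had 1188, 521 and 462 counts (−1.46 and −1.25). Of 53 centrosome and spindle pole genes 28 were below in both (medians −0.56 and −0.14). NEDD1, which anchors gamma-tubulin rings, fell from 533 counts to 266 and 189 (−1.27 and −1.38), and CCP110, which caps centrioles, from 669 to 372 and 260 (−1.12 and −1.25). HAUS7, an augmin subunit, had 624, 1367 and 971 counts (0.85 and 0.74). With the trend removed the medians shrank to −0.48 and −0.27 for kinesins, −0.22 and −0.22 for kinetochore genes and −0.30 and −0.03 for centrosome genes. CASC5 (−0.93 and −0.99), NEDD1 (−0.81 and −1.24) and CCP110 (−0.60 and −0.99) then no longer passed 2-fold in both.

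Mitotic kinases and cyclins had medians of −0.44 and −0.34, with 15 of 24 below in both and 0 past 2-fold in both. CDK1, the kinase that drives entry into mitosis, had 1952, 1201 and 1089 counts (−0.98 and −0.73), and CCNB1, its cyclin partner, had 6125, 6930 and 5242 (−0.10 and −0.12). CDC25B, a phosphatase that activates CDK1, had 4117, 5772 and 4314 (0.21 and 0.17). On the CPM scale CCNB1 stood at 225, 210 and 207, close to level across the 3 libraries.

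In the list of condensin, topoisomerase II and Ki-67, 2 genes passed 2-fold lower in both (all genes 1.44%). TOP2A, the topoisomerase that untangles sister DNA, had 13080, 6660 and 5071 counts (−1.25 and −1.26). SMC4, the condensin ATPase, had 6374, 2836 and 2728 counts (−1.44 and −1.12), and MKI67, the proliferation antigen that coats mitotic chromosomes, had 33618, 24441 and 17904 (−0.74 and −0.80). Of the 11 genes 9 were below in both and 0 above in both, with medians of −0.54 and −0.53. With the trend removed the medians were −0.48 and −0.57, and TOP2A (−0.81 and −1.10) and SMC4 (−0.92 and −0.87) lost the shared call. Among the 17 cohesin genes 14 were below in both (medians −0.42 and −0.33, and −0.14 and −0.21 with the trend removed). SMC1A, a core cohesin subunit, had 14946, 6957 and 3116 counts (−1.38 and −2.15), and STAG2, another core subunit, had 2397, 1584 and 629 (−0.87 and −1.82). SMC1A, on chromosome X from 53374149 to 53422728, and HSD17B10, which rose, are separated by 8529 bases.

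DNA replication genes were lower mainly in CDK16-sh2. Their medians were −0.28 and −0.56, with 39 of 58 below in both, 1 past 2-fold under CDK16-sh1 and 12 under CDK16-sh2. CLSPN (claspin), which relays fork stress to CHK1, had 4328, 2432 and 1404 counts (−1.11 and −1.52, and −0.90 and −1.49 with the trend removed). GINS4, part of the replicative helicase, had 1871, 1273 and 857 (−0.83 and −1.02) and was above DMSO at 0.75 and 0.54. POLD2, a subunit of DNA polymerase delta, had 3144, 5130 and 3786 (0.43 and 0.37).

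In the list of G1/S cyclins, Rb and E2F genes, medians were −0.09 and −0.37, and 11 of 27 were below in both. RBL1, the pocket protein p107, had 1199, 687 and 457 counts (−1.08 and −1.28). LIN54, the DNA-binding subunit of the DREAM complex, in which pocket proteins repress cell-cycle genes, had 505, 249 and 219 (−1.29 and −1.09). With the trend removed RBL1 was at −0.68 and −1.15 and LIN54 at −0.84 and −0.92, neither past 2-fold in both. CCNE2 had 510, 324 and 142 counts (−0.93 and −1.73), and CCND2 had 93, 339 and 134 (1.57 and 0.62). Of the 12 genes of the study's RT-qPCR panel other than CDK16, TOP2A alone was past 2-fold in both (all genes 1.44% lower). The panel's medians were −0.27 and −0.43. In that panel RRM2, a ribonucleotide reductase subunit, had 6761, 6043 and 3035 counts (−0.44 and −1.05), CDK2 had 2108, 1444 and 1355 (−0.82 and −0.53), and MCM7 had 6238, 8647 and 4254 (0.19 and −0.45). By RT-qPCR the study reported some panel genes lower after knockdown, such as CCNB1, TOP2A and MCM7, and CDKN1A, CDKN1B and BAX higher. The panel's medians therefore mix genes reported in both directions. In the libraries here MCM7 was lower in CDK16-sh2 only, and CDKN1A and CDKN1B were each higher with 1 hairpin only. The panel was chosen by the study on this system, so its values are not independent evidence.

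Cell-cycle inhibitors and p53 targets were near scramble as a list, with medians of 0.05 and 0.05, 7 of 28 below in both and 8 above. CDKN1A (p21) had 1097, 1558 and 759 counts (0.23 and −0.42), CDKN1B (p27) had 1021, 1184 and 1074 (−0.06 and 0.18), and BAX, which permeabilises mitochondria, had 1193, 2190 and 1262 (0.60 and 0.19). GADD45A had 2039, 3979 and 2558 counts (0.69 and 0.43). In the BCL2 family 0 of 16 genes passed 2-fold in both, with medians of 0.38 and 0.07.

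The DREAM complex, by textbook knowledge, binds the CHR element, TTTGAA, in promoters of mitotic genes. RefSeq promoters (GRCh38.p14, from 250 bases before to 50 after the gene start) were matched for 9805 of the genes described. TTTGAA or its reverse TTCAAA was found in 62 of 136 promoters of the 6 mitotic lists (45.6%; central spindle, kinases, kinetochore, centrosome, kinesins and condensin) and in 9.66% of all 9805. Those with the letters had median log2 fold changes of −0.66 and −0.34, those without −0.47 and −0.16. In the 131 matched promoters of genes lower in both hairpins the share was 13.7%, and in the 34 of genes higher in both it was 0 of 34. A match is a description of letters and no evidence of binding. The promoters of TOP2A and PRC1 are shown with the matches in capitals, since TOP2A fell in both libraries and PRC1 did not pass 2-fold in either. They lie on the minus strand at chr17:40417847-40418146 and chr15:90994486-90994785.
TOP2A promoter: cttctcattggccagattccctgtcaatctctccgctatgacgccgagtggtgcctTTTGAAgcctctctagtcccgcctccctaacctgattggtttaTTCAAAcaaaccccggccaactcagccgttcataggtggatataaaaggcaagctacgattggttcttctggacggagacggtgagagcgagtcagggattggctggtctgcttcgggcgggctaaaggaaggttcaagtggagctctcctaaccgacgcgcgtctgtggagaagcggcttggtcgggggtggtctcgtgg
PRC1 promoter: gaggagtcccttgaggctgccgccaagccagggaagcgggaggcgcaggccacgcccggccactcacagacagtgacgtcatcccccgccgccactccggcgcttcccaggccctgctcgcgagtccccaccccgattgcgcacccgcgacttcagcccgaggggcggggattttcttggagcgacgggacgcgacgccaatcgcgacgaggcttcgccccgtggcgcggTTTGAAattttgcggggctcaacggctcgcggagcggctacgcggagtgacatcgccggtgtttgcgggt
TOP2A held 2 matches and PRC1 1. The other motifs searched, on both strands, were the CCAAT box, the GC box GGGCGG, the E-box CACGTG, the AP-1 site TGACTCA and the CRE site TGACGTCA, of which none contains another. CCAAT stood in 56.6% of the mitotic promoters and in 36.8% of all.

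**Figure D3:**
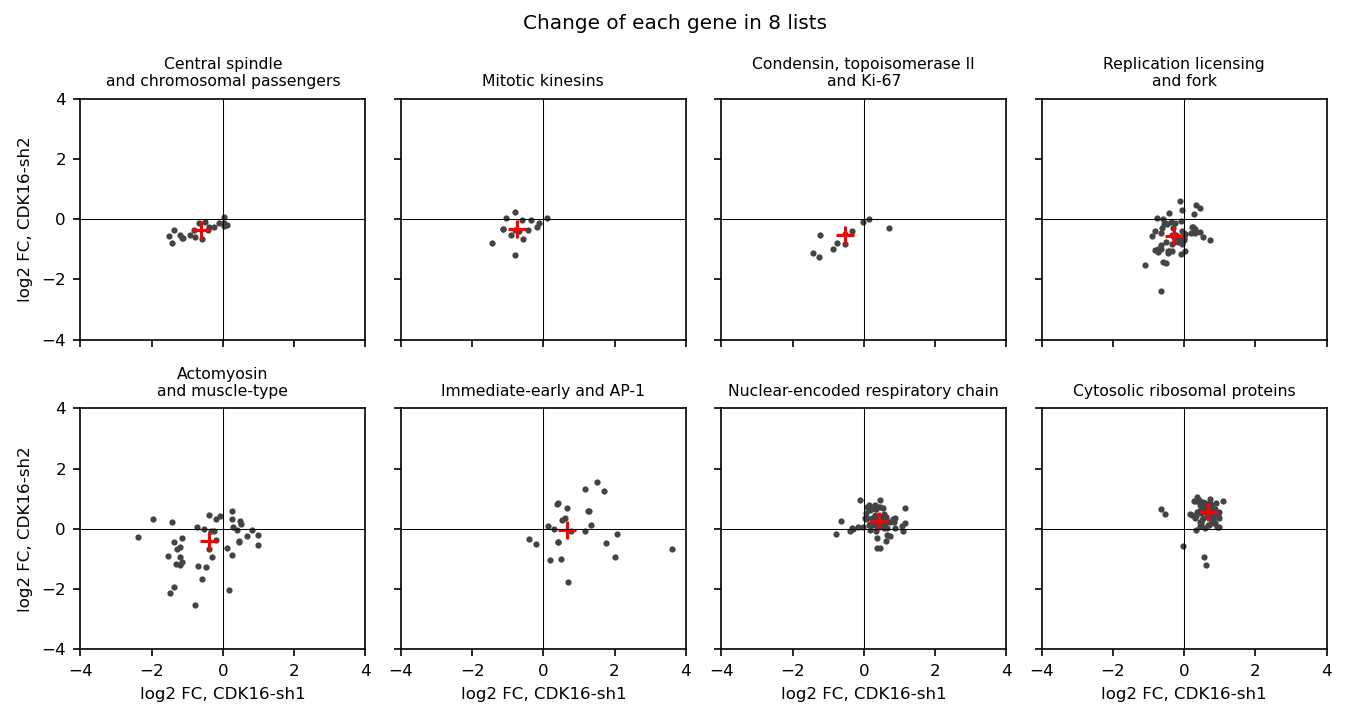
Log2 fold change of each member of 8 gene lists in CDK16-sh1 (horizontal) and CDK16-sh2 (vertical), with a red cross at the 2 medians. Central spindle and kinesin genes lie mostly at the lower left, 76 of 82 cytosolic ribosomal protein genes at the upper right, and immediate-early genes spread up and down, mostly at positive CDK16-sh1 values.

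Ribosomal protein genes shifted upward together and by small steps. Of the 82 cytosolic ribosomal protein genes measured 76 were above scramble in both libraries, with medians of 0.66 and 0.55, while 1 was 2-fold higher in each library, 1 was 2-fold lower in CDK16-sh2, and 0 passed in both. The gene lower in CDK16-sh2 was RPS27A at 0.62 and −1.19, chosen after its values were seen. RPS27 had 2117, 4345 and 3367 counts (0.76 and 0.78), and RPL15 had 4472, 11477 and 7783 (1.08 and 0.91). Mitochondrial ribosomal protein genes had medians of 0.39 and 0.37, with 58 of 78 above in both. MRPS23 had 1508, 3558 and 2909 counts (0.96 and 1.05). These genes encode the protein part of the translation machinery of the cytosol and the mitochondrion.

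Genes of the respiratory chain and the proteasome moved in the same direction. Of 76 nuclear-encoded respiratory chain genes 59 were above in both, with medians of 0.42 and 0.26, and 26 of 39 proteasome genes were, with medians of 0.29 and 0.23. NDUFA3, a complex I subunit, had 247, 678 and 372 counts (1.17 and 0.69), and PSMB5, a catalytic proteasome subunit, had 2512, 4158 and 3275 (0.45 and 0.49). The 15 transcripts of the mitochondrial genome had medians of −0.05 and 0.64, and took 11.3%, 10.4% and 16.2% of all counts in the respective libraries. Respiratory chain and ribosomal protein genes are short, with median exon lengths of 2468 and 2979 bases against 4350 for all genes. After the trends on GC content and length were removed, cytosolic ribosomal protein genes kept medians of 0.60 and 0.48 and respiratory chain genes 0.28 and 0.23.

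Genes of contraction and adhesion were lower as lists. In the actomyosin and muscle-type list 5 of 43 genes passed 2-fold lower in both (all genes 1.44%), and the medians were −0.39 and −0.41. The list was chosen with earlier results of these data known, so this contrast is a description only. MYLK, the myosin light chain kinase, had 865, 372 and 179 counts (−1.49 and −2.15). ROCK2, a RHOA effector kinase that acts on the same light chain, had 2757, 1289 and 676 (−1.37 and −1.92), and its paralog ROCK1 had 2947, 1618 and 1255 (−1.14 and −1.12). MKL2, a coactivator of serum response factor, had 399, 209 and 161 (−1.20 and −1.19), and the muscle transcription factor MEF2C had 313, 150 and 128 (−1.32 and −1.17). MYLK and both ROCK genes were also over 2-fold below DMSO, whereas MEF2C was above it, at 0.42 and 0.56. With the GC and length trend removed MYLK alone of the 5 kept the shared call, at −1.17 and −1.91, while ROCK2 was at −0.89 and −1.68, ROCK1 at −0.66 and −0.87, MKL2 at −0.77 and −0.93 and MEF2C at −0.80 and −0.89. MKL1, the paralog of MKL2, had 648, 1092 and 728 counts (0.48 and 0.27).

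Of 28 integrin and focal adhesion genes 17 were below in both, with medians of −0.35 and −0.40. ITGB1, the common beta chain, had 26065, 17545 and 11190 counts (−0.85 and −1.11), ITGA2 had 2003, 1151 and 1017 (−1.07 and −0.87), and VCL (vinculin) had 6683, 4575 and 1867 (−0.82 and −1.73). ILK, an adaptor at focal adhesions, had 4761, 9743 and 5911 (0.76 and 0.42). In the matrix list 3 of 43 genes were past 2-fold lower in both, against 1.44% of all genes (medians −0.19 and −0.48). COL6A3, a collagen VI chain, had 5546, 2671 and 924 counts (−1.33 and −2.48), but scramble was 5.58 above DMSO on the log2 scale, and the hairpin libraries remained above DMSO at 4.26 and 3.09. EDIL3, an integrin ligand, had 938, 458 and 355 (−1.31 and −1.29, and −0.86 and −1.14 with the trend removed), and the laminin chain LAMB3 had 21746, 34948 and 50505 (0.41 and 1.32).

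Among 17 genes of epithelial-mesenchymal transition and cadherins, CDH11, a mesenchymal cadherin, had 2499, 1429 and 1042 counts (−1.08 and −1.15). It was the only member past 2-fold in both (all genes 1.44% lower), a call it lost with the trend removed (−0.65 and −0.91). ZEB1, a repressor of epithelial genes, had 2199, 1106 and 1163 (−1.27 and −0.81), and VIM (vimentin) had 86511, 137281 and 97290 (0.39 and 0.28). The list had medians of −0.39 and −0.16. In the TGF-beta list of 42 genes 0 passed 2-fold in both (medians −0.11 and −0.23). INHBB, an activin subunit, had 2001, 1265 and 179 counts (−0.94 and −3.36), and the receptor ACVR2B had 258, 577 and 592 (0.88 and 1.30).

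CDK16 is known from neurons and secretory cells, and 2 lists address these functions. Of 38 axon guidance genes 19 were below in both (all genes 30.9%) and 3 past 2-fold lower in both (all genes 1.44%; medians −0.26 and −0.42): SEMA3D (110, 46 and 7 counts), SEMA5A (64, 11 and 22) and PLXNC1 (118, 63 and 48), all at low counts. SLIT2, a guidance ligand, had 1142, 734 and 373 counts (−0.91 and −1.50). Of 62 Rab and exocytosis genes 23 were below and 21 above in both, with medians of −0.22 and 0.08. RAB27B, which docks secretory vesicles, had 277, 160 and 104 counts (−1.06 and −1.29, and −0.51 and −1.05 with the trend removed) but was at 0.29 and 0.03 against DMSO, and RAB8A had 7816, 15431 and 11248 (0.70 and 0.63).

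Protein kinase A and cAMP genes had 2 of 30 members past 2-fold lower in both (all genes 1.44%), PRKACB and PDE3B, a cAMP phosphodiesterase (144, 61 and 64 counts, −1.48 and −1.04). Their medians were −0.41 and −0.09, and −0.04 and 0.09 with the trend removed, where neither gene kept the shared call. PRKAR1A, a regulatory subunit, had 7223, 3749 and 4612 counts (−1.22 and −0.54), and PKIG, an inhibitor of the kinase, had 804, 1876 and 1076 (0.94 and 0.53). In the inositol and phosphoinositide kinase list PPIP5K2 alone of 39 genes passed 2-fold in both (all genes 1.44% lower, list medians −0.13 and −0.22). PIK3R3 had 458, 295 and 114 counts (−0.91 and −1.88) and PIP5K1C had 606, 1516 and 884 (1.04 and 0.65).

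Growth factor signaling lists differed from each other. The RAS, RAF, MEK and ERK genes had medians of −0.28 and −0.07, with 12 of 23 below in both, 2 above in both and 0 past 2-fold in both, and a median of 0.04 in CDK16-sh1 with the trend removed. NRAS had 2200, 1332 and 679 counts. The members above in both were HRAS, with 2185, 5018 and 2507 (0.92 and 0.30), and ARAF, with 2459, 4982 and 2868 (0.74 and 0.33). Of 26 immediate-early and AP-1 genes 12 were above in both (46.2%, against 32.2% of all genes) and 2 below (7.69%, against 30.9%), with medians of 0.68 and −0.05, and 3 were 2-fold higher in both (all genes 0.438%): MYC, TRIB1 and FOSL1. FOSL1, an AP-1 subunit, had 22090, 60375 and 51293 counts (1.17 and 1.32) and was above DMSO by 2.33 and 2.46, though at 0.71 in CDK16-sh1 with the trend removed. DUSP6, a phosphatase of ERK, had 2178, 1859 and 959 counts (−0.50 and −1.08), and DUSP5 had 634, 2470 and 869 (1.68 and 0.56).

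Of 19 measured chemokine, interleukin and colony-stimulating factor genes 3 were 2-fold higher in both (all genes 0.438%), CSF3, IL32 and CXCL16, and the medians were 0.85 and 0.22. IL32 had 179, 715 and 357 counts (1.71 and 1.09) and CXCL16 had 17, 71 and 38 (1.68 and 1.18). IL6 had 81, 753 and 149 (2.91 and 0.97) and was below DMSO in both, by −0.73 and −2.70. In the NF-kB list TRAF1, an adaptor and target of the pathway, had 478, 2392 and 984 counts (2.04 and 1.15). It was the only one of 21 past 2-fold in both (all genes 0.438% higher), and the medians were 0.53 and 0.09. NFKBIA, the feedback inhibitor, had 1805, 3155 and 2287 (0.53 and 0.45).

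Type I interferon response genes were below scramble, with medians of −0.24 and −0.55 and 23 of 37 below in both. TRIM22, an antiviral ubiquitin ligase, had 222, 117 and 97 counts (−1.18 and −1.07, and −0.85 and −0.97 with the trend removed), and OAS3, which makes the activator of RNase L, had 984, 612 and 290 (−0.96 and −1.65). Against DMSO these medians were 0.89 and 0.40, with scramble above DMSO by a median of 1.10. BST2 (tetherin) had 6139, 11184 and 6805 counts (0.59 and 0.26).

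Stress and lipid pathways had members in each direction. In the integrated stress and unfolded protein list of 41 genes, SEL1L, which retrieves misfolded proteins from the endoplasmic reticulum, fell from 1061 counts to 305 and 435 (−2.07 and −1.18), and PSAT1, a serine synthesis enzyme, from 1334 to 767 and 381 (−1.07 and −1.70). PPP1R15A (GADD34), which restarts translation after stress, rose from 12726 to 36604 and 25572 counts (1.25 and 1.11). With the trend removed none of these 3 genes passed 2-fold in both, with SEL1L at −1.58 and −0.94, PSAT1 at −0.99 and −1.75 and PPP1R15A at 0.87 and 1.01. The medians were −0.12 and 0.03. Of 37 glycolysis and hypoxia genes 0 passed 2-fold in both (medians 0.01 and 0.11), and HIF1A had 3278, 2631 and 2502 counts (−0.59 and −0.28). SCD, the desaturase of fatty acid synthesis, had 2644, 990 and 1780 (−1.69 and −0.46), and FASN had 5975, 8584 and 8523 (0.25 and 0.62).

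In the complexes and families of 3 leading rises no other member was 2-fold higher in both. Only 0.438% of all genes were, so lists of this size would seldom hold another. The other 27 measured dynein and dynactin genes included none past that threshold, and the list's medians were −0.12 and 0.12, with 11 of 28 genes above scramble in both and 9 below. BICD2, a dynein adaptor, had 2574, 1847 and 539 counts (−0.75 and −2.15). Mediator had medians of −0.15 and 0.18, with 14 of 32 genes above in both (43.8%, against 32.2% of all genes) and 10 below. MED16 had 659, 1464 and 987 counts (0.87 and 0.69) and MED8 had 954, 1850 and 1300 (0.68 and 0.55), while MED13L had 1521, 583 and 798 counts (−1.66 and −0.82). Histone lysine demethylases had medians of −0.02 and 0.20, with 8 of 22 above in both and 6 below. JMJD6 had 1093, 2568 and 1804 counts (0.95 and 0.83), and KDM1B had 479, 259 and 306 counts (−1.16 and −0.54). SR protein, hnRNP and CLK genes had medians of −0.33 and −0.03, and HNRNPA2B1 had 79877, 62162 and 26948 counts (−0.64 and −1.46).

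Shared calls in large families are given beside the shares of all genes as a description only. Of 420 zinc finger genes named ZNF 5 were 2-fold lower and 2 higher in both, against 1.44% and 0.438% of all genes, with medians of −0.05 and 0.03. Of 197 solute carriers 5 were lower and 1 higher in both, with medians of 0.07 and −0.09. The share lower was larger than among all genes, but it rests on 5 genes and was not tested. SLC4A7, a sodium bicarbonate cotransporter, had 1071, 430 and 438 counts (−1.59 and −1.18), and SLC16A7, a pyruvate and lactate transporter, had 353, 154 and 153 (−1.46 and −1.09). With the trend removed SLC4A7 was at −1.04 and −0.91 and SLC16A7 at −0.76 and −0.70.

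**Figure D4:**
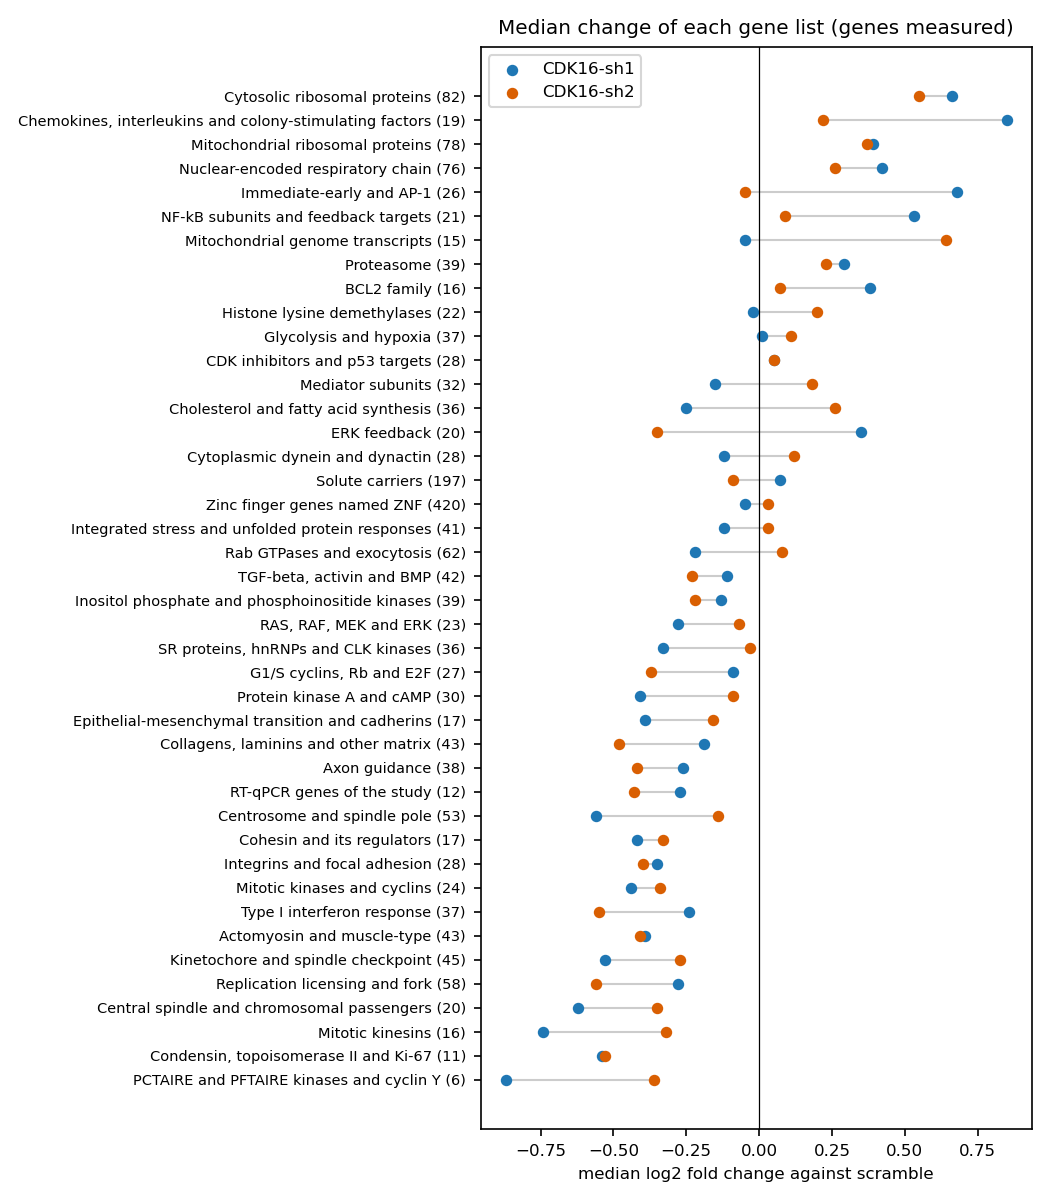
Median log2 fold change of each of the 42 gene lists in CDK16-sh1 (blue) and CDK16-sh2 (orange), with the number of genes measured in brackets. Cytosolic ribosomal proteins are at 0.66 and 0.55 near the top, the condensin list at −0.54 and −0.53 near the bottom, and the ERK feedback and cholesterol lists cross zero between hairpins.

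Genes lower in both and genes higher in both differed in build. Genes lower in both had a median GC content of 43%, an exon length of 5954 bases and 12 exon blocks, those higher in both 56.7%, 2582 bases and 4 exon blocks, and all genes 48.6%, 4350 bases and 9 exon blocks. With genes cut into 5 equal groups by GC content, 2.6% of the poorest group were lower in both and 0.0657% higher, and of the richest group 0.46% and 0.953%. The median log2 fold change ran from −0.41 in the poorest to 0.42 in the richest group under CDK16-sh1, and from −0.13 to 0.10 under CDK16-sh2. With the trend on GC content and length removed, 170 genes were lower and 48 higher in both, of which 123 and 35 were among the 221 and 67. Chromosome 19 held 17.9% of the genes higher in both and 7.39% of all genes. Shared genes were also weakly expressed, with a median of 4.81 CPM for those lower and 3.66 for those higher against 17.8 for all. Whether GC content, length or level had a part in the shared changes was not tested.

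**Figure D5:**
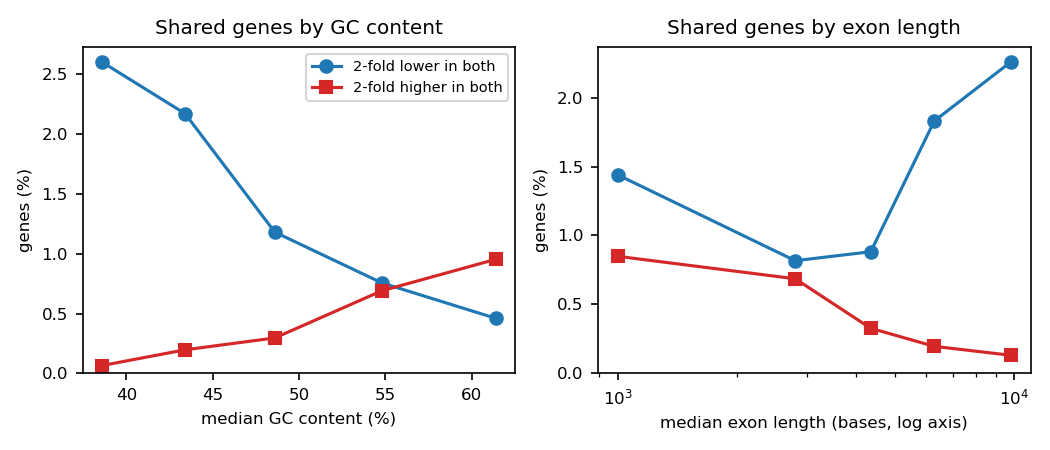
Share of genes 2-fold lower (blue circles) or higher (red squares) in both hairpins, in percent, for 5 equal groups of the genes by GC content (left) and by exon length (right, log axis). The share lower falls from 2.6% to 0.46% as GC content rises, and the share higher falls from 0.849% in the shortest group to 0.131% in the longest.

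The libraries held 25838443 to 31955119 counts. Of 13 mesenchymal markers of the line 11 averaged at least 1 CPM over the 3 libraries. VIM, CD44 and AXL were abundant in all 3, while TWIST1 was at 0 and SPARC had 14, 15 and 1 counts. Of 14 luminal and epithelial markers 8 averaged at least 1 CPM: KRT8, KRT18, KRT19, ERBB2, XBP1, GATA3, EPCAM and AGR2. Under that mean were ESR1 (8, 3 and 2 counts), PGR (1, 2 and 1), CDH1 (7, 5 and 4), FOXA1, ELF5 and TFF1. Of 8 blood cell markers CD68 alone averaged at least 1 CPM, and of 11 endothelial and fibroblast markers 4 did, with a summed level of 19.3 to 27.4 CPM. CD14 was at 0.698, 1.39 and 0.435 CPM in scramble, CDK16-sh1 and CDK16-sh2. CD68 stood at 230, 251 and 351 CPM.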

How the data were processed

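The authors extracted total RNA, made stranded mRNA libraries and sequenced them on an Illumina instrument. Per the labels, reads were trimmed with Trimmomatic and counted with featureCounts of Subread 1.5.1 on GRCh38. The aligner and the strand setting are not given in the sources used here. The deposited counts are whole reads per gene symbol without normalization, and the deposited RPKM values divide them by gene length and library total. Among symbols, 28 had been turned into dates, and 129 symbols lie on more than 1 chromosome.

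Counts were scaled with TMM in edgeR 4.0.16 (R 4.3.3). Log2 fold changes came from CPM with 2 as prior count, for genes averaging 1 CPM or more. The pooled test was edgeR's quasi-likelihood test, with DESeq2 1.42.0 as the alternative. Total counts were 25838443 to 31955119. The 95% intervals cover counting error only, since each condition had 1 library, and reads carried no molecular identifiers. GC content was known from GENCODE 29 for 99.4% of genes, and its trend was fitted with loess (span 0.5). Members and the 42 lists were chosen with earlier results of these data known. Genes named are CDK16 and its kin, the 15 largest shared falls and rises by the smaller change among genes of at least 5 CPM, up to 3 falls and 3 rises per list, and the RT-qPCR genes, and some others were chosen after their values were seen. The hairpin sequences are not shown here.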

Additional observations from a re-analysis of the deposited data

Results flagged for a closer look

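In 2 gene lists the medians of the hairpins lay on opposite sides of scramble by at least 0.2 each, on the log2 scale, and other lists had medians of opposite sign with 1 of them nearer to 0. The ERK feedback genes, inhibitors that growth factor signaling induces, stood at a median log2 fold change over 20 genes of 0.35 under CDK16-sh1 and −0.35 under CDK16-sh2. The cholesterol and fatty acid synthesis genes had −0.25 and 0.26 over 36 genes. The difference between hairpins was not tested, since each has 1 library.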

How the results depend on the processing

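With 1 library per condition, leaving out a hairpin leaves no residual degrees of freedom, so the pooled test could not be repeated without it. The number of genes lower in both (221) was 117 with a mean of at least 5 CPM, 1001 with no filter on low counts, 993 at a 1.5-fold and 20 at a 3-fold threshold, and 1628 against the DMSO library. The number higher in both (67) was 29, 455, 504, 5 and 1555 under these settings, 33 with library totals and 27 with RPKM plus 0.1. All other settings stayed within 1.5 times, and the CDK16 fold changes kept their side of 2-fold under all of them. Pooled calls stayed at 0 with library totals (359 genes at an unadjusted p under 0.05), DESeq2 size factors (386), no filter (586 of 30848) and DESeq2 (233). The numbers of calls follow the threshold and the genes tested by construction.

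Among genes named in the text or by the rule, those past 2-fold against scramble in a hairpin that changed sign against DMSO were, in CDK16-sh1, the lincRNA on chromosome X 2.09, BCL7A −1.40, CSF3 −1.24, EVI5L −0.22, LMBR1L −0.02, IL6 −0.73, TRIM22 1.84, COL6A3 4.26, EPHB2 −0.01, RAB27B 0.29, SEMA5A 1.08, MEF2C 0.42 and AMOT 2.26. In CDK16-sh2 they were the lincRNA on chromosome X 2.19, NRK 0.57, KDM6B −0.29, BCL7A −1.10, CSF3 −0.38, EVI5L −0.21, GINS4 0.54, TRIM22 1.93, COL6A3 3.09, RAB27B 0.03, SLC16A7 0.26, SEMA5A 2.30, MEF2C 0.56 and AMOT 2.80. List medians of at least 0.2 in size that no longer kept their sign against DMSO were, in CDK16-sh1, NF-kB 0.00 and interferon 0.89. In CDK16-sh2 they were ERK feedback 0.03, cytokines −0.86, interferon 0.40 and histone lysine demethylases −0.46, the last at a rounded 0.20 against scramble. Genes and medians under those sizes that changed sign are not listed. With the GC and length trend removed the RAS list in CDK16-sh1 went to 0.04, 74 fold changes of single genes fell under 2-fold, 8 passed it and 10 list medians moved by 0.2 or more. The numbers of genes called, 170 and 48, stayed within 1.5 times, but 98 of the 221 lower and 32 of the 67 higher lost the call. The cause was not tested. The 1 scramble library, and the depth of genes near 1 CPM, limit every comparison.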

Other observations

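Antisense genes were matched by name to the gene they are named for, without asking for overlap. Of 313 with a measured partner, 12 were 2-fold lower in both hairpins (all genes 1.44%). The partners of all 12 were below scramble in both (all genes 30.9%), 4 of them by 2-fold: ADD3, TMPO, DSG2 and DENND6A. TMPO, a lamina protein, stood at −1.61 and −1.10 and TMPO-AS1 at −2.15 and −1.40. HLX-AS1 was the 1 such gene higher in both, at 1.81 and 1.03, and HLX, a homeobox factor, was at 1.76 and 1.10. The rest of the 313 were not called in both and are not described. Antisense genes without such a match by name, some of them called in both, were left out of these counts. Among all shared genes 17 pairs lay within 50 kb of each other, 16 of them in the same direction and 12 of these overlapping. SMC1A and HSD17B10 were the pair in opposite directions. With 221 genes lower and 67 higher, most pairs of shared genes would have the same direction wherever they lie. How often neighbours among all genes move together was not counted. Whether overlapping reads produced the overlapping pairs was not tested.

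Further shared genes, lower in both except for NR1D1, were chosen after their values were seen. The septins SEPT10 (2241, 1093 and 876 counts) and SEPT11 (4447, 1855 and 1861), filament proteins of the cell cortex, are listed under dates and were recognised by position. ATAD2, a bromodomain ATPase, had 3778, 2011 and 877 counts, TXNRD1, which reduces thioredoxin, had 5289, 2863 and 1308 (−1.16 and −1.91), and MYBL1, a transcription factor of the MYB family, had 1976, 976 and 733 (−1.29 and −1.32). AMOT, a scaffold of the Hippo pathway, had 266, 101 and 115 counts (−1.65 and −1.09) but was above DMSO by 2.26 and 2.80. NR1D1, a nuclear receptor of the circadian clock, was higher in both, with 372, 2752 and 730 counts (2.60 and 1.08). With the GC and length trend removed SEPT11 was at −1.12 and −0.95, ATAD2 at −0.73 and −1.82 and TXNRD1 at −0.91 and −1.84. MYBL1 was then at −0.78 and −1.11 and NR1D1 at 2.19 and 0.98. None of the genes with these values kept the shared call.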
